A study of Oryza sativa with 3 samples.

Results

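The peaks described here are those on chromosome 10 in 3 deposited lists of rice 5-hydroxymethylcytosine (5hmC) peaks, taken by the chromosome name that each list gives. They numbered 415 of 4077 peaks in 93-11, 383 of 3628 in LYP9 and 295 of 2545 in PA64s, together 1093 of 10250. Each list came from 1 library of genomic DNA from field-grown young panicles 3 to 4 mm long. 93-11 is an inbred indica line, PA64s is an inbred line with genic male sterility, and LYP9 is their hybrid, with PA64s as the mother and 93-11 as the father, so that it carries a chromosome 10 from each. DNA was sheared to 200 to 300 bp, an azide-modified glucose was placed on 5hmC by β-glucosyltransferase, biotin was clicked onto it and the tagged fragments were pulled down on streptavidin. The labels also list an anti-5hmC antibody, whose use they describe for dot blots. No replicate and no control library entered the lists, so cultivars could not be compared by a test. Intervals below are 95% exact intervals that cover counting error alone.

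5hmC is the oxidised form of 5-methylcytosine, the methylated base that in plants is most abundant over transposons and other repeats in heterochromatin. In animals it is made by the TET enzymes, for which plants have no clear counterpart, and its amount and role in plants are debated. Rice chromosome 10 is known for a short arm that is largely heterochromatic and a long arm that is mostly euchromatic and richer in genes. A genome build was not given in the sources used here. For that reason the first 8 Mb served as a working short arm and everything beyond it as the long arm, positions are those of the files counted from 1, and no gene or repeat annotation was joined to them. The last peak of any list ended at 23098794, and the first 8 Mb made up 34.6% of that span.

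The short arm held most of the peaks in each list. It carried 285 peaks in 93-11 (interval 253 to 320), 272 in LYP9 (241 to 306) and 214 in PA64s (186 to 245). The long arm carried 130 (109 to 154), 111 (91.3 to 134) and 81 (64.3 to 101). The short arm's share was thus 68.7% of the chromosome's peaks in 93-11 (64.0 to 73.1), 71.0% in LYP9 (66.2 to 75.5) and 72.5% in PA64s (67.1 to 77.6). These intervals overlap between the lists, but they cover counting error alone and no cultivar had a replicate library. Whether the arm share differs among the cultivars was therefore not tested. On the short arm 93-11 peaks covered 45.7 kb, LYP9 peaks 41.6 kb and PA64s peaks 32.4 kb, against 17.4, 15.2 and 12.01 kb of the long arm. The density of peaks on the short arm was 35.6 per Mb in 93-11 (31.6 to 40.0), 34.0 in LYP9 (30.1 to 38.3) and 26.8 in PA64s (23.3 to 30.6). The first 8 Mb of chromosome 4, another arm known as heterochromatic, had 32.1 peaks per Mb in 93-11 (28.3 to 36.3), 29.4 in LYP9 (25.7 to 33.4) and 19.0 in PA64s (16.1 to 22.3). The intervals overlap in 93-11 and LYP9 but not in PA64s. They take peaks as independent, which clustered peaks are not, so no difference in density is read from them. That stretch held 52.4%, 56.0% and 53.3% of the chromosome 4 peaks, so a high density of peaks in the first 8 Mb was not particular to chromosome 10.

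Within the short arm the peaks were concentrated in a pair of 1 Mb windows, from 3 to 4 Mb and from 5 to 6 Mb. 93-11 had 58 and 104 peaks in them, LYP9 61 and 107, and PA64s 49 and 99. Their share of the chromosome's peaks was 39.0% for 93-11, 43.9% for LYP9 and 50.2% for PA64s. From 6 to 7 Mb there were 27 peaks each in 93-11 and LYP9 but 10 in PA64s, and the window from 7 to 8 Mb held 39, 33 and 18. From 8 to 9 Mb, just past the working arm limit, PA64s had the most peaks, 30 against 27 in 93-11 and 24 in LYP9. The start of the chromosome was sparse, with 5, 2 and 3 peaks in the first 1 Mb. Beyond 13 Mb no window held more than 9 peaks in any list.

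**Figure D1:**
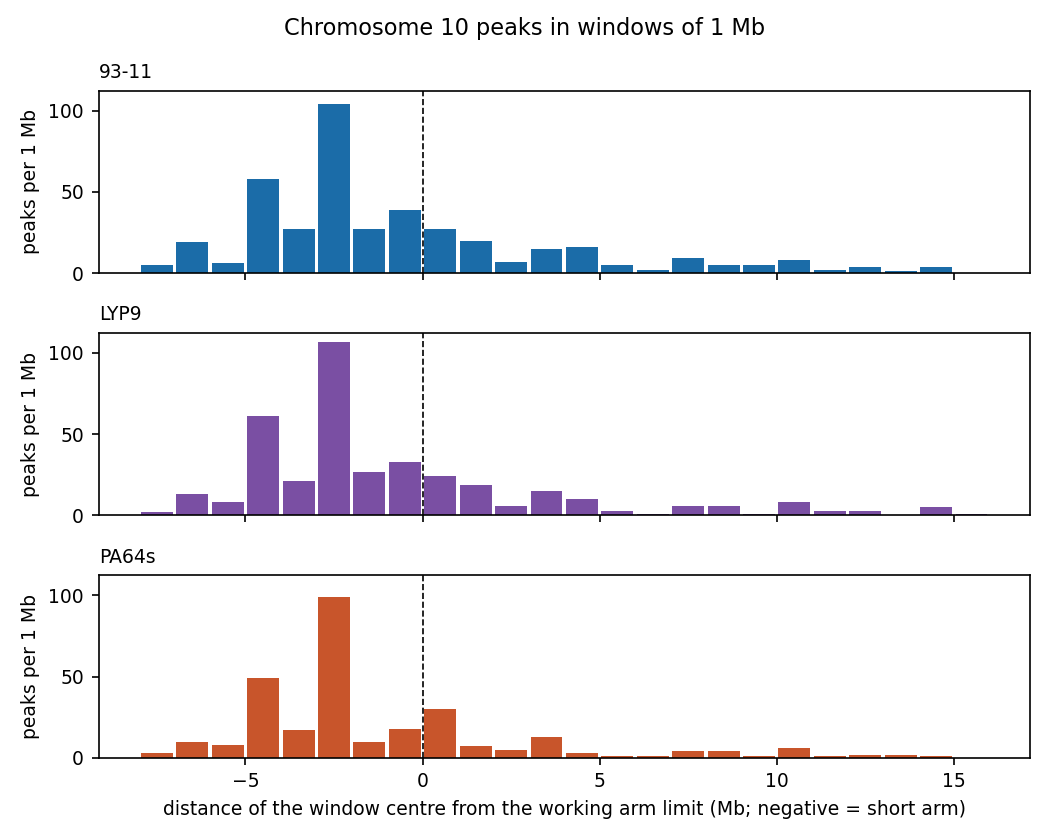
Number of chromosome 10 peaks (vertical axis) in windows of 1 Mb, placed by the distance of the window centre from the working arm limit at 8 Mb (horizontal axis, Mb), with 1 panel for each library; bars are counts. The tallest bar in each panel is the window from 5 to 6 Mb, with 104 peaks in 93-11, 107 in LYP9 and 99 in PA64s, and bars are low throughout the distal long arm.

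At a finer scale, 231 windows of 100 kb spanned the chromosome and 97 of them held no peak in any list, 22 of the 80 on the short arm and 75 of the 151 on the long arm. The densest was the window from 5.1 to 5.2 Mb, with 41 peaks in 93-11, 42 in LYP9 and 40 in PA64s. It was followed by 3.2 to 3.3 Mb with 27, 28 and 22 peaks, 5.0 to 5.1 Mb with 18, 19 and 19, and 3.3 to 3.4 Mb with 17, 19 and 16. The fifth was the window from 8.1 to 8.2 Mb, the only one of these 5 beyond the arm limit, with 16 peaks in every list. Over the whole chromosome 93-11 had 1.41 times as many peaks as PA64s. Chromosome 10 held 10.2% of the 4077 peaks of 93-11 and 11.6% of the 2545 peaks of PA64s, so this excess was smaller than that of the whole lists. The longest stretches without a peak in any list were all on the long arm. They ran from 17356317 to 18558887 (1.20 Mb), from 21859867 to 22517590 (0.658 Mb) and from 14219863 to 14804438 (0.585 Mb).

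Spacing followed the same division. Over the whole chromosome the median gap between neighbouring peaks was 2196 bp for 93-11, 1880 bp for LYP9 and 1782 bp for PA64s, and it was 11082, 9585 and 8232 bp once peaks of a list within 500 bp of each other were merged. The median gap between neighbouring short-arm peaks was 1374 bp in 93-11 (interval 977 to 1865), 1386 bp in LYP9 (1030 to 1855) and 1391 bp in PA64s (964 to 2059). Short-arm spacing was therefore nearly equal in the lists despite their different numbers of peaks. On the long arm the median gap was 19321 bp in 93-11 (9657 to 51063), 22203 bp in LYP9 (5568 to 45904) and 8254 bp in PA64s (1777 to 66264), with intervals that overlap widely. Just past the arm limit, from 8 to 9 Mb, lay 30 of the 81 long-arm peaks of PA64s. In 93-11 it was 27 of 130 and in LYP9 24 of 111. Arm limits other than 8 Mb were tried for the arm share alone, not for spacing, height, background or overlap. Gaps of at most 500 bp made up 31.3%, 33.2% and 32.9% of short-arm gaps, 15.5%, 13.6% and 21.3% of long-arm gaps, and 16.2%, 16.3% and 16.5% of gaps on the other 11 nuclear chromosomes.

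Peak lengths were short on both arms. Short-arm peaks had a median length of 117 bp for 93-11, 118 bp for LYP9 and 115 bp for PA64s, and long-arm peaks 106, 103 and 113 bp. The shortest peaks measured 83, 81 and 81 bp, which is the fragment length to which the peak caller MACS extended tags in each library. Peaks of at least 200 bp, the lower end of the sheared size, made up 22.1% of short-arm peaks in 93-11 (17.4 to 27.4) against 10.8% on the long arm (6.01 to 17.4). In LYP9 these shares were 22.1% and 18.02%, and in PA64s 20.6% and 17.3%, with overlapping intervals in both. The 3 longest merged regions all lay on the short arm. They ran from 5118729 to 5119394 (666 bp), from 5281597 to 5282255 (659 bp) and from 5529752 to 5530407 (656 bp), and the second of them held 2 LYP9 peaks beside 1 in each parent. At the last of them 93-11 reached 63 tags, LYP9 64 and PA64s 44.

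Peak height was described by the pileup, the authors' number of tags, at the MACS length, over the summit. It was scaled to 1000000 tags of the file header and is called the scaled pileup here. Header totals were 10007148 tags (93-11), 10078296 (LYP9) and 11948210 (PA64s). These totals include tags of the organelle sequences, whose shares were not measured here. The median scaled pileup over chromosome 10 was 3.00 in 93-11 (interval 2.80 to 3.40), 3.18 in LYP9 (2.98 to 3.87) and 2.85 in PA64s (2.68 to 3.10). The medians of the other 11 nuclear chromosomes, taken one by one, ranged from 1.90 to 2.60 in 93-11, from 1.89 to 2.58 in LYP9 and from 1.84 to 2.34 in PA64s, so chromosome 10 stood above all of them in each library. The short arm carried this height. Its median was 3.90 in 93-11 (3.30 to 4.50), 4.02 in LYP9 (3.37 to 4.56) and 3.01 in PA64s (2.85 to 3.26), while that of the long arm was 2.10, 2.18 and 2.26, within the range of the other chromosomes. The first 8 Mb of chromosome 4, although similarly dense in 93-11 and LYP9, had lower medians of 2.50, 2.28 and 2.26. Limited to peaks whose −log10 p reached the pooled median of 15.35, the medians for chromosome 10 were 5.00, 4.86 and 3.68. The highest peaks of chromosome 10 reached 147 tags in 93-11, 143 in LYP9 and 131 in PA64s. Non-redundant tags limit the pileup to 166 tags in 93-11, 162 in LYP9 and 162 in PA64s, whatever the number of tags. Scaling therefore puts this limit lowest in PA64s, the library with the most tags. How far it lowered the scaled pileup of tall peaks, here and in the comparisons of lists below, was not tested.

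The fold enrichment, the authors' ratio of the pileup to the background that MACS took from the same library, did not differ between the arms in the same way. Its median on the short arm was 7.99, 8.35 and 7.98 in 93-11, LYP9 and PA64s, and on the long arm 8.45, 8.82 and 8.46, with overlapping intervals in each list. Dividing the pileup by the fold gives that background. Its lowest value in a list was 2.13 tags in 93-11, 2.09 in LYP9 and 2.48 in PA64s, the value that the tags give when spread evenly over the genome size in the header. The median short-arm peak stood on a background of 1.87 times this genome-wide value in 93-11 (1.66 to 2.09), 1.82 times in LYP9 (1.54 to 2.23) and 1.72 times in PA64s (1.39 to 1.90). On the long arm the median was 1.00, 1.00 and 1.20 times. With no control library the background contains the peaks' own and their neighbours' tags, so a dense cluster raises it by construction. How much of the raised background came from that, from sequence in extra copies or from any other source was not tested.

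A background of at least 2 times the genome-wide value was found for 156 of the 415 peaks in 93-11 (37.6%, interval 32.9 to 42.4), 150 of 383 in LYP9 (39.2%, 34.2 to 44.3) and 99 of 295 in PA64s (33.6%, 28.2 to 39.3). Over all nuclear peaks the share was 17.7% in 93-11, 18.1% in LYP9 and 16.9% in PA64s, and single other chromosomes reached at most 25.3%, 29.9% and 27.2%. On the short arm it was 47.0%, 48.2% and 40.7%, and on the long arm 16.9%, 17.1% and 14.8%. The threshold was set after the values were seen. Among peaks under it, the median scaled pileup of the short arm was 2.60 in 93-11, 2.28 in LYP9 and 2.43 in PA64s, against 1.90, 2.03 and 2.18 on the long arm. These peaks numbered 151, 141 and 127 on the short arm of 93-11, LYP9 and PA64s, and 108, 92 and 69 on the long arm.

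**Figure D2:**
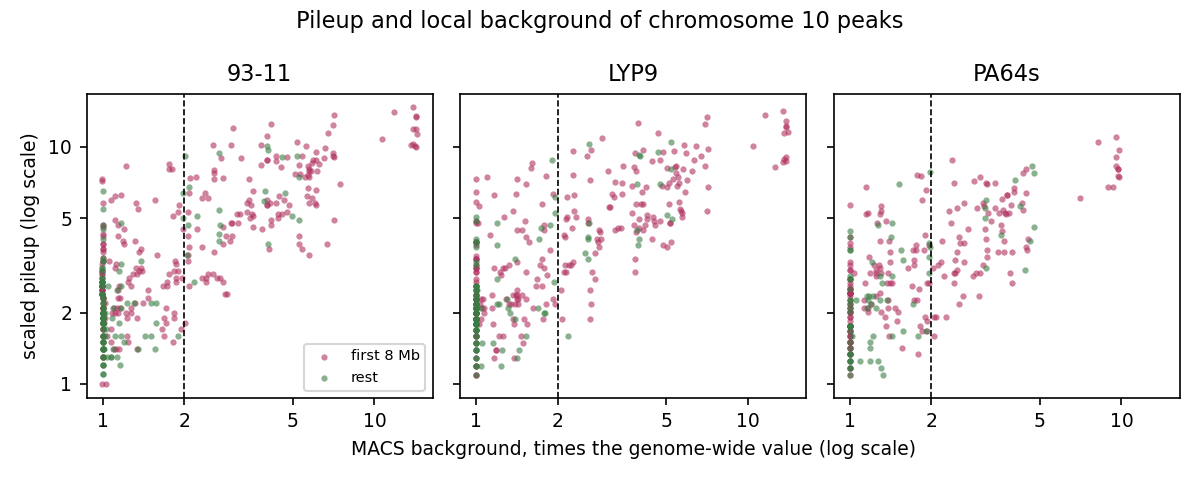
Scaled pileup, in tags per 1000000 header tags (vertical axis, log scale), of each chromosome 10 peak against its MACS background as a multiple of the genome-wide value (horizontal axis, log scale); each point is a peak, coloured by arm, the dashed line marks 2 times, and each panel is 1 library. Pileup and background share the pileup by construction; points of the first 8 Mb fill the right side, up to 14.3 times in 93-11, 14.1 in LYP9 and 9.77 in PA64s, while few long-arm points pass the line.

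Peaks lay in compact clusters. Joining peaks of any list up to 5 kb apart, a distance chosen after the values were seen, gave 230 groups, of which 32 held at least 10 peaks summed over the lists. These 32 clusters spanned 246 kb, or 1.07% of the chromosome, yet held 54.7% of the 93-11 peaks, 58.7% of the LYP9 peaks and 65.1% of the PA64s peaks. Of the 32, 27 lay on the short arm and 5 on the long arm, and every one held peaks of all 3 lists. Summing over the lists counts a shared site up to 3 times, so the minimum of 10 peaks favours shared sites. Nothing is therefore read from the presence of all lists in each cluster. The share of peaks in such clusters was not computed for the other chromosomes. The other nuclear chromosomes had between 5 and 21 such clusters each.

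The cluster with the most peaks ran from 5099014 to 5122425, where 93-11 had 20 peaks, LYP9 had 19 and PA64s had 18. Its pileups ranged from 37 to 125 tags in 93-11, from 39 to 127 in LYP9 and from 23 to 105 in PA64s. The next, from 5411268 to 5428389, held 14, 14 and 11 peaks with median pileups of 80, 71 and 63 tags. Both clusters thus combined high and moderate peaks.

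The cluster from 5142540 to 5149532 differed from these in its background. Its 12 peaks in 93-11, 13 in LYP9 and 12 in PA64s had pileups of 100 to 147, 83 to 143 and 73 to 131 tags. The median background under them was 14.0 times the genome-wide value in 93-11, 13.6 times in LYP9 and 9.57 times in PA64s. The fold was accordingly low, with a median of 3.99, 4.06 and 4.07, nearly the same in the lists. The highest pileups of chromosome 10 in each library lay in this stretch of 6.99 kb. The pileup limit was 166 tags in 93-11 and 162 in LYP9 and PA64s. On so high a background that limit keeps the fold low, and the background contains the cluster's own tags. Nothing about enrichment is therefore read from the low fold or from its similar value in the lists.

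Clusters of the long arm were fewer. The cluster from 8181664 to 8187557, close to the working arm limit, held 8, 9 and 8 peaks with median scaled pileups of 5.20, 4.76 and 3.85 and folds of 10.7, 8.82 and 9.59. Further along the arm, the cluster from 11381766 to 11388425 held 7, 7 and 8 peaks on a median background of 4.99, 5.03 and 4.53 times the genome-wide value. Among the 10 clusters with the most peaks, the median scaled pileup was lowest in PA64s in 10 of 10, and it was higher in 93-11 than in LYP9 in 9 of 10. The median background was lowest in PA64s in 9 of 10, while the median fold was highest in PA64s in 7 of 10. Over all nuclear places where the 3 lists had overlapping peaks, the scaled pileup was lower in PA64s than in 93-11 in 88.3%. It was lower in LYP9 than in 93-11 in 65.8% of them. No such share was computed for the counts on background and fold, so none of these counts is shown to be particular to these clusters. The effect of the pileup limit, lowest in PA64s after scaling, on these tall clusters was not tested.

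**Figure D3:**
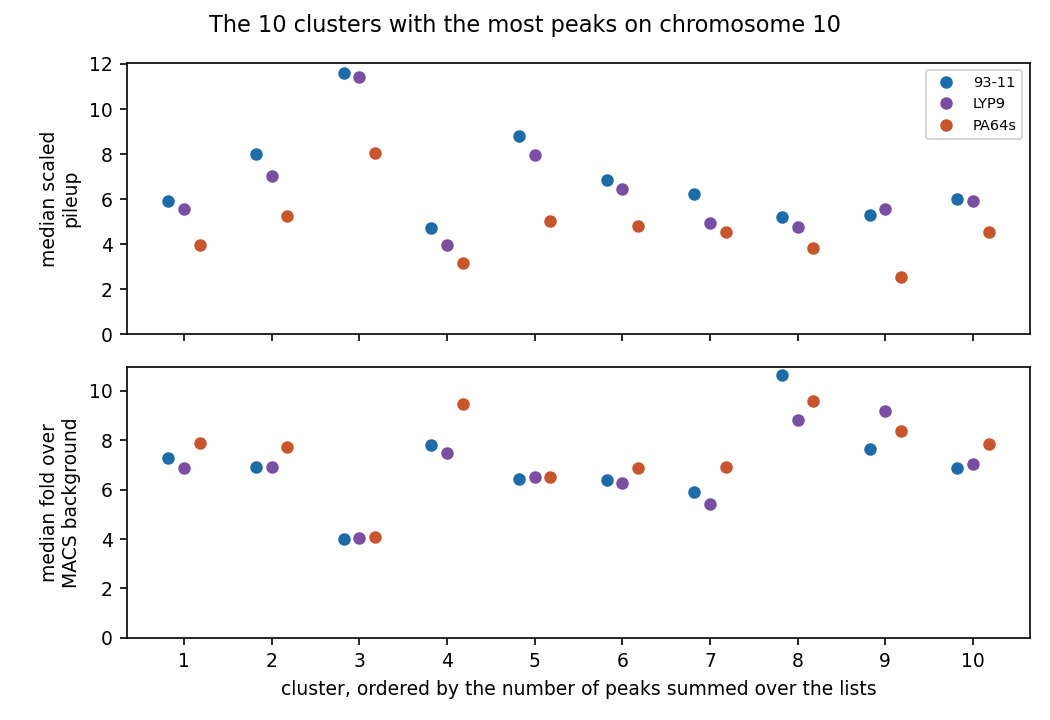
Median scaled pileup, in tags per 1000000 header tags (upper panel), and median fold over MACS background (lower panel) of the peaks in each of the 10 clusters with the most peaks; points are libraries, without replicates or error bars. PA64s lies lowest in the upper panel in 10 of 10 clusters; in the lower panel it lies highest in 7 of 10, and the third cluster has medians of 3.99, 4.06 and 4.07.

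The overlap of the lists shows where the libraries had peaks at the same places. Of the 93-11 peaks on chromosome 10, 71.8% (interval 67.2 to 76.1) overlapped a LYP9 peak by at least 1 bp, against 63.7% of all 93-11 peaks. In PA64s, 53.0% (48.1 to 57.9) of them had a counterpart, against 40.5%. Of the LYP9 peaks, 78.1% (73.6 to 82.1) were met by 93-11 and 59.0% (53.9 to 64.0) by PA64s, against 71.8% and 47.4% over the whole list. Of the PA64s peaks, 75.3% (69.9 to 80.1) were met by 93-11 and 76.3% (71.0 to 81.0) by LYP9, against 65.3% and 67.7%. In each of these 6 ordered pairs the share on chromosome 10 was above that of the whole list. Without the chromosome's peaks on a raised background this held only for PA64s peaks, at 68.4% in 93-11 and 69.4% in LYP9. The 93-11 peaks then had shares of 59.1% in LYP9 and 34.4% in PA64s, below those of the whole list. So did the LYP9 peaks, with 69.5% in 93-11 and 43.3% in PA64s. The whole lists kept their peaks on a raised background. The lists differ in length, which alone makes shares of the shorter list higher.

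The arms differed in these shares. On the short arm, 79.6% of 93-11 peaks (74.5 to 84.2) had a LYP9 counterpart and 61.8% (55.8 to 67.4) a PA64s counterpart, against 54.6% (45.7 to 63.4) and 33.8% (25.8 to 42.7) on the long arm. The PA64s peaks were met by 93-11 in 82.7% of cases on the short arm (77.0 to 87.5) and 55.6% on the long arm (44.1 to 66.6). The long-arm shares lay below those of the other nuclear chromosomes, which were 62.0% and 37.4% for 93-11 peaks in LYP9 and PA64s and 64.0% for PA64s peaks in 93-11, but the long-arm intervals hold the latter values. Peaks on a raised background were met more often than the rest. Of these, 92.9% in 93-11 (145 of 156) had a LYP9 counterpart, whereas 59.1% (153 of 259) of the remaining 93-11 peaks had one. A PA64s counterpart was found for 84.0% (131 of 156) and 34.4% (89 of 259) of the same peaks. Among short-arm peaks of 93-11 without raised background, 68.2% (60.1 to 75.5) had a LYP9 counterpart and 42.4% (34.4 to 50.7) a PA64s counterpart. No test of these differences was made, since neighbouring peaks are not independent. The split by background was not made for the other chromosomes, so it is not shown to be particular to chromosome 10. Short-arm peaks and those on a raised background often lie in dense clusters. How far dense spacing by itself raised their shares was not tested. Neither the arm contrast nor the background contrast was repeated under a stricter overlap rule.

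Merging overlapping peaks gave 553 regions on chromosome 10. All 3 lists had a peak in 208 of them, 37.6% (33.6 to 41.8) against 26.1% of all regions in the series. On the short arm 167 of 354 regions were common to the lists (47.2%) and on the long arm 41 of 199 (20.6%). A further 88 regions were in 93-11 and LYP9, 16 in LYP9 and PA64s, and 11 in the parents but not in LYP9. Regions of 1 list numbered 106 in 93-11, 67 in LYP9 and 57 in PA64s. In the common regions the summits of 93-11 and LYP9 lay a median of 3 bp apart, and those of 93-11 and PA64s 4 bp apart, and 71.6% of the summits were within 10 bp in either pair.

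The common region with the highest rank of the authors' −log10 p ran from 5118729 to 5119394, which is also the longest merged region. It reached 125 tags in 93-11, 127 in LYP9 and 105 in PA64s, at folds of 14.1, 15.4 and 17.7. The region from 5413404 to 5413543 came next, with 120, 110 and 91 tags. Close to each other lay a region at 7055295 to 7055491 with 81, 82 and 62 tags, and another at 7055735 to 7055996 with 85, 86 and 81. At the region from 5203635 to 5203747 the background was at 1.00 times the genome-wide value in every library, and the folds of 34.3, 35.4 and 27.4 were the highest of the 10 regions ranked this way in 93-11 and LYP9. Those of the long arm were the regions from 8184397 to 8184534, with 94, 104 and 94 tags, and from 8187148 to 8187557, with 92, 89 and 83 tags. The region starting at 3164340 reached 90, 92 and 90 tags, the one at 3204578 reached 102, 98 and 79, and the one at 5167482 reached 102, 97 and 67. In these 10 regions the scaled pileup of PA64s was below that of 93-11 each time, as it was in 96.2% of the chromosome's common regions and 88.3% of all common nuclear regions.

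A further region, chosen after its values were seen, lay close to the start of the chromosome. Its peaks ran from 193 to 383 in 93-11, from 194 to 379 in LYP9 and from 196 to 371 in PA64s. The scaled pileup was 7.19 in 93-11, 5.85 in LYP9 and 4.18 in PA64s, and the fold was 33.8, 28.2 and 20.2, with LYP9 between its parents in both.

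Over the 208 common regions, LYP9 was close to 93-11 and above PA64s. The median ratio of scaled pileups, LYP9 over 93-11, was 0.960 (quartiles 0.856 to 1.04), and LYP9 was the higher of the pair in 75 regions, 36.1% against 34.2% over all 1410 common nuclear regions. The median ratio of PA64s over 93-11 was 0.659 (0.566 to 0.757), with PA64s lower in 200 of 208 regions, 96.2% against 88.3%. PA64s lay more than 1.5 times below 93-11 in 108 regions, or 51.9%, against 37.7% of the common nuclear regions. This share was 56.9% on the short arm (95 of 167) and 31.7% on the long arm (13 of 41). LYP9 lay more than 1.5 times above PA64s in 93 regions, or 44.7%, against 29.4%. The median background ratio of PA64s over 93-11 was 0.680 on chromosome 10, where the pileup ratio was 0.659, and 0.992 on the other nuclear chromosomes, where the pileup ratio was 0.733. The fold, which divides the one by the other, had a median ratio of 0.982 on chromosome 10 and 0.837 on the others. The background does not fall below the genome-wide value, near which many peaks of the other chromosomes lay. A background ratio close to equality there follows in part from that floor, and so does the lower fold ratio. Splitting the common regions by the 93-11 background gave pileup ratios of 0.663 at the 128 regions where it was raised and 0.651 at the remaining 80. The fold ratios in these classes were 1.07 and 0.749, but the 93-11 background is the divisor of the 93-11 fold, so this split shifts them by construction and nothing is read from their difference. Regions without raised background on the other chromosomes had a pileup ratio of 0.749. The 328 regions with raised background there had a pileup ratio of 0.696 and a background ratio of 0.738. At the raised regions of chromosome 10 the background ratio was 0.618.

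**Figure D4:**
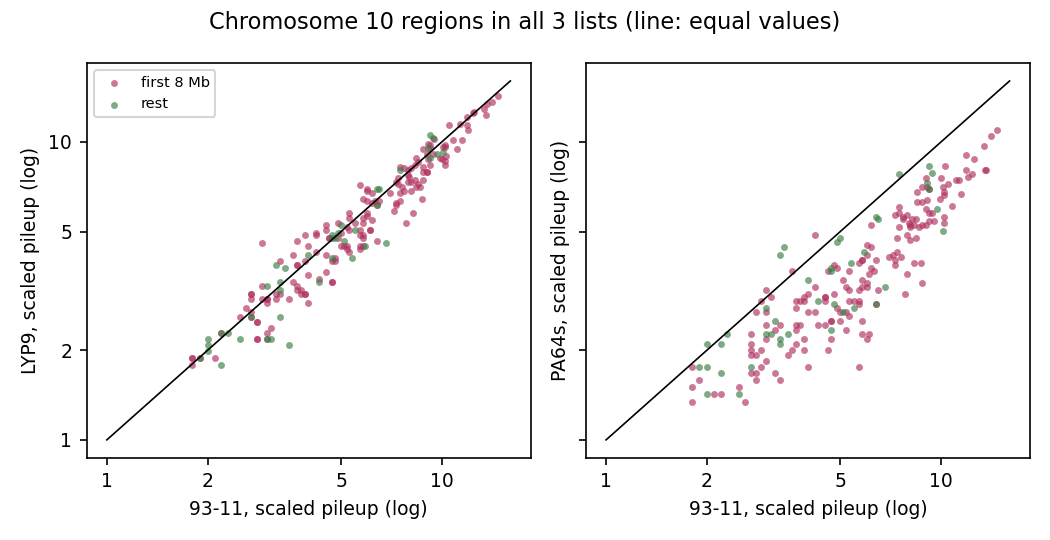
Scaled pileup, in tags per 1000000 header tags, of LYP9 (left) and PA64s (right) against that of 93-11 at the 208 chromosome 10 regions in all 3 lists, on log axes; each point is a region, coloured by arm, and the line marks equal values. LYP9 points follow the line, with a median ratio of 0.960, and PA64s points lie below it in 200 of 208 regions.

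Set beside both parents, LYP9 lay between them in 128 of the 208 common regions (61.5%, against 58.1% of all common nuclear regions), at or above the higher parent in 72 (34.6%, against 31.0%) and at or below the lower parent in 8 (3.85%, against 10.9%). The median ratio of LYP9 to the mean of its parents was 1.14 (quartiles 1.04 to 1.24), and over all common nuclear regions it was 1.10.

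The hybrid's peaks on chromosome 10 were mostly found in a parent. Of 383, 209 were in both parents (54.6%, interval 49.4 to 59.6, against 41.7% of the whole LYP9 list). A further 90 were in 93-11 alone (23.5%, 19.3 to 28.1, against 30.0%) and 17 in PA64s alone (4.44%, 2.61 to 7.01, against 5.62%). The other 67 were in neither (17.5%, 13.8 to 21.7, against 22.6%). On the short arm 61.8% were in both parents and 12.5% in neither, and on the long arm 36.9% and 29.7%. The LYP9 peaks found in both parents had a median pileup of 51 tags, those in 93-11 alone 23, those in PA64s alone 22 and those in neither 18.

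**Figure D5:**
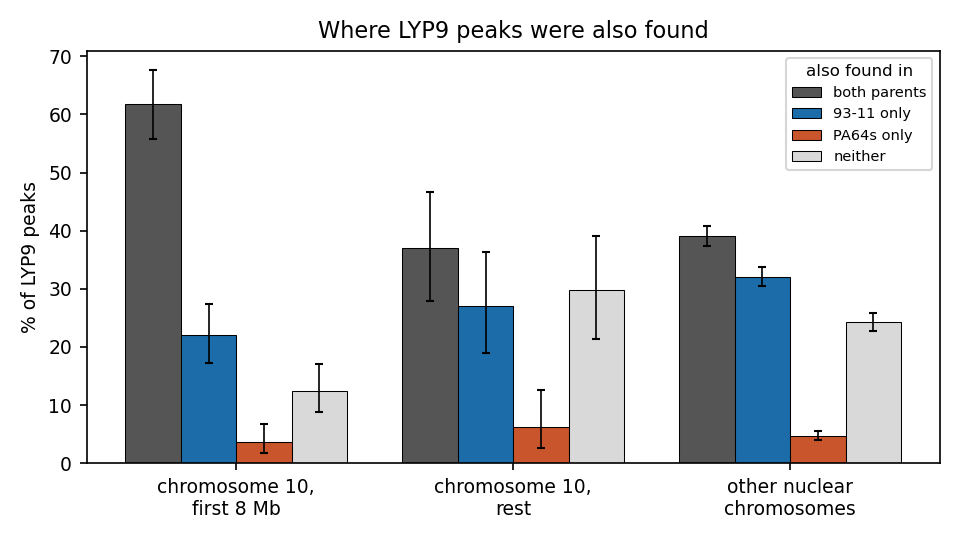
Percentage of LYP9 peaks (vertical axis) also found in both parents, in 1 parent alone or in neither, for the first 8 Mb of chromosome 10, its rest and the other nuclear chromosomes; error bars are 95% Clopper-Pearson intervals and cover counting error only. The bar for both parents is at 61.8% in the first 8 Mb, 36.9% in the rest and 39.0% on the other chromosomes.

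Seen from the parents, 209 of the 220 peaks of 93-11 that PA64s shared recurred in LYP9 (95.0%, 91.2 to 97.5, against 91.9% over the list). Peaks of 93-11 without a PA64s counterpart recurred in 89 of 195 cases (45.6%, 38.5 to 52.9, against 44.5%), and those of PA64s without a 93-11 counterpart in 16 of 73 (21.9%, 13.1 to 33.1, against 22.9%). Both shares were near those of the whole lists. On the short arm 59 of 109 such peaks of 93-11 recurred (54.1%, 44.3 to 63.7) and on the long arm 30 of 86 (34.9%, 24.9 to 45.9), with intervals that overlap slightly. Those of PA64s recurred in 9 of 37 and 7 of 36 cases.

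Regions in 93-11 and LYP9 without PA64s were led by 3 on the long arm. The region from 10793490 to 10793623 reached 65 tags in 93-11 and 40 in LYP9, at folds of 30.5 and 19.1. At 9228172 to 9228321 the pileups were 45 and 41 tags, and at 9994787 to 9994914 they were 41 and 40. All of them stood on the genome-wide background. Of the regions in LYP9 and PA64s without 93-11, the one from 8338718 to 8338857 reached 22 tags in LYP9 and 56 in PA64s, and the one from 20394994 to 20395089 reached 20 and 44. The third, from 5003699 to 5003798, reached 23 and 38. In these 3 regions the scaled pileup of LYP9 was below that of PA64s. The strongest of both parents without LYP9 were weaker, with 26 and 31 tags in 93-11 and PA64s at 7079240 to 7079337, 26 and 27 at 3371573 to 3371664, and 27 and 21 at 7075190 to 7075288.

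Peaks in 1 list alone made up 25.5% of the chromosome's peaks in 93-11 (106, interval 21.4 to 30.0, against 33.1% of the list), 17.5% in LYP9 (67, 13.8 to 21.7, against 22.6%) and 19.3% in PA64s (57, 15.0 to 24.3, against 26.8%). They were low peaks, with a median pileup of 18, 18 and 21 tags against 42, 40.5 and 38 for peaks that another list also had. For 19, 12 and 13 of them a peak of some other list was at most 500 bp away. The strongest in 93-11 alone lay at 8946481 to 8946609 with 28 tags and, beside it, at 8946798 to 8946908 with 27, and on the short arm at 7245196 to 7245292 with 46. In LYP9 they lay at 5115610 to 5115706 with 50 tags, at 8182441 to 8182523 with 36 and at 5426537 to 5426641 with 53, all on a background of over 2 times the genome-wide value.

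The strongest peaks of PA64s alone lay next to each other on the long arm. They ran from 8337272 to 8337513 with 50 tags and a fold of 14.1, from 8336394 to 8336618 with 44 tags and 11.5, and from 8335303 to 8335421 with 40 tags and 10.3. Together with a peak from 8338535 to 8338626 with 34 tags, and the region at 8338718 that LYP9 shared at 22 tags, they formed a PA64s group in which 93-11 had no listed peak. Absence from a list means only that no peak passed the authors' q-value cutoff of 0.01 there.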

How the data were processed

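BWA 0.5.8 was the mapper, per the submitters' processing notes, and peaks were called for each library by itself with MACS 2.0.9, per the file headers, with a q-value cutoff of 0.01, no control file, a regional background range of 10000 bp and at most 2 tags per position. The headers name uniquely mapped, non-redundant alignments and count 10007148 tags in 93-11, 10078296 in LYP9 and 11948210 in PA64s. A genome build was not given in the sources used here. Deposited per peak are its position and length in bp, the pileup, a coverage signal in tags that the authors left unscaled, the fold enrichment, a ratio to MACS's background, and the −log10 p and −log10 q as the peak caller wrote them.

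Computed here were the pileup per 1000000 header tags, the background as pileup divided by fold, overlaps of at least 1 bp, gaps and clusters. Shares carry exact Clopper-Pearson, counts exact Poisson and medians order-statistic 95% intervals, which take peaks as independent. Cultivars were not tested, with 1 library each. Named regions are the 10 common to the lists whose −log10 p ranked highest (mean of the percentiles within each list), the 3 strongest of each list and each pair of lists, the 3 longest, the 5 densest windows of 100 kb and the 3 longest empty stretches; others are marked. Members and lists were chosen with earlier results of these data known. Python 3.11.15, numpy 2.4.6, pandas 2.3.3, scipy 1.17.1 and matplotlib 3.10.9 were used, and overlap routines were tested on simulated data. Alternatives changed the arm limit, the overlap rule, the score minimum, list length, merging and scaling.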

Additional observations from a re-analysis of the deposited data

How the results depend on the processing

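The concentration on the short arm held under every arm limit and peak set tried: its share stayed between 58.3% and 82.7%. With the limit at 7 Mb the shares were 59.3%, 62.4% and 66.4% for 93-11, LYP9 and PA64s, and at 9 Mb 75.2%, 77.3% and 82.7%. Merging peaks within 500 bp gave 65.5% in LYP9 and moved the median gap to 11082, 9585 and 8232 bp. Peaks with −log10 p at or above the pooled median numbered 257 in 93-11 and 242 in LYP9, with 78.6% and 78.5% on the short arm, median lengths of 125 and 123 bp and median pileups of 5.00, 4.86 and, in PA64s, 3.68 (scaled). Of these, LYP9 had a counterpart to 83.3% and PA64s to 65.8% of the 93-11 peaks. The LYP9 peaks were met in 88.8% of cases by 93-11 and 68.6% by PA64s, and the PA64s peaks in 86.0% by 93-11 and 83.5% by LYP9.

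A required overlap of 50% of both peaks gave, in the same order, 66.3% and 46.3%, 71.8% and 53.5%, and 65.1% and 69.5%, with 47.5% of LYP9 peaks in both parents and 22.2% in neither. Gaps of up to 500 bp gave 77.3% and 59.8% for 93-11, 82.2% and 65.3% for LYP9, 82.4% for PA64s peaks in LYP9 and 61.9% of LYP9 peaks in both parents. With each list limited to its 2545 strongest peaks, LYP9 and PA64s had counterparts to 83.4% and 65.6% of 93-11 peaks, PA64s to 67.2% of LYP9 peaks and 93-11 to 69.5% of PA64s peaks, and 61.5% of LYP9 peaks were in both parents and 12.9% in neither. Under these rules LYP9 peaks remained more often found in 93-11 than in PA64s.

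The following alternatives were added after seeing the data. Without peaks on a raised background, 259 peaks were left in 93-11, 233 in LYP9 and 196 in PA64s, with 58.3%, 60.5% and 64.8% on the short arm. Their shares were 59.1% and 34.4% for 93-11, 69.5% and 43.3% for LYP9, and 68.4% and 69.4% for PA64s. A background minimum of 1.5 times was met by 46.5%, 49.1% and 46.8% of peaks, and one of 3 times by 25.3%, 27.7% and 22.4%. With unscaled pileups, a scaling planned for the ratios, the median ratio was 0.787 for PA64s over 93-11 and 1.21 for LYP9 over PA64s, in the same directions, and LYP9 lay between its parents in 51.4% of regions.

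Of 92 alternative values, 66 left the interval of the reported value or, for counts, differed from it by more than 1.5 times. The other 26 stayed within these bounds. No paired analysis was possible because each cultivar had 1 library. The number of tags, the missing control and peaks near the q-value cutoff limit what absence from a list can show.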
